A study of Mus musculus with 144 samples.

Results

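The comparison described here sets vehicle-treated mouse hepatocytes at 72 h of culture against vehicle-treated hepatocytes at 48 h. Its libraries were chosen by their labels alone, as all those given DMSO and harvested at either time point, and they number 16 of the series' 72 libraries given DMSO and 72 given TCDD, 8 at each time point. The series followed primary hepatocytes over 9 time points from 2 to 120 h, treated with 10 nM TCDD (2,3,7,8-tetrachlorodibenzo-p-dioxin, a ligand of the aryl hydrocarbon receptor, AHR) or with its solvent DMSO. The comparison asks how far gene expression in the vehicle-treated cultures moved between 48 and 72 h.

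The hepatocytes came from male mice aged 28 days. At each time point 4 libraries were labelled WT (C57BL/6NCrl) and 4 were labelled PkmΔDRE, a whole-body line in which CRISPR removed the core of an intronic dioxin response element, the DNA motif bound by AHR, from the pyruvate kinase gene Pkm. All 16 cultures were labelled as given DMSO and no TCDD, which the AHR targets of 1 library go against, and all were kept in William's E medium with insulin, transferrin, selenium and dexamethasone after serum was used for attachment only. The libraries are numbered as in their sample titles. Those of 48 h are 21 to 24 (labelled WT) and 93 to 96 (labelled PkmΔDRE). Those of 72 h are 25 to 28 (labelled WT) and 97 to 100 (labelled PkmΔDRE). The labels name no animal, isolation or day for any library, so the p-values below measure the spread between these libraries, which may in part be technical. Label and protocol text differ on the culture vessel and on the number of cells plated, and culture age cannot be told apart from time since the medium and vehicle were added.

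Hepatocytes in the liver are quiescent, polarised cells that secrete most plasma proteins and carry the enzymes of drug, amino acid and bile acid metabolism. Once isolated by enzyme digestion and plated, they leave quiescence, flatten and lose much of this specialised expression over days, while fetal liver genes and matrix genes come on. The process is known as dedifferentiation and is the usual limit of this culture system.

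Each library held 15550949 to 22900470 read pairs counted on genes, and 14334 genes passed the filter on low counts. Values below are given as CPM, a depth-scaled level computed from read pairs on genes with library sizes scaled by the trimmed mean of M-values, and CPM compares libraries for 1 gene, not genes with each other. Hepatocyte RNA was abundant at both time points: Alb, serum albumin, ranged from 6855 to 17446 CPM at 48 h and from 5192 to 13814 CPM at 72 h. Several libraries stood apart. Library 21 (48 h) held 3253 CPM of Cyp1a1, the AHR target most used to detect TCDD, against 0.397 to 54.7 CPM in the other 15, which goes against its vehicle label. Library 64 (labelled WT, TCDD, 72 h) goes against its label the other way, with 27.6 CPM against 2952 to 6625 CPM in the other 15 TCDD libraries of these time points, and whether the labels were exchanged was not tested. Libraries 21 and 22 (48 h) held 1769 and 1910 CPM of Saa1 against at most 352 CPM in the others. Libraries 23 (48 h) and 27 (72 h) held 170 and 387 CPM of Vegfa, a gene induced by low oxygen, against at most 37.0 CPM, and 1187 and 2069 CPM of Pkm against at most 670 CPM. Libraries 24 and 94 (48 h) held 91 and 120 CPM of the proliferation marker Mki67 against 4.13 to 42.2 CPM, and were also the highest of the 48 h libraries in read pairs mapped uniquely outside genes (10.65% and 11.28%). That share had a median of 6.02% at 48 h and 7.80% at 72 h. The part of these differences in the results below was tested only by leaving libraries out and, for the share outside genes, by fitting it as a covariate.

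With a call set at an adjusted p under 0.05 and a change of at least 1.5-fold (edgeR's quasi-likelihood test, Benjamini-Hochberg adjustment, genotype label as a covariate), 195 genes were higher at 72 h and 351 were lower. These are 1.36% and 2.45% of the 14334 genes tested, and they form the background for every count of a gene group below. The median log2 fold change of all genes was 0.01. In 46 genes (0.321%) all 8 libraries of 72 h lay above all 8 of 48 h, and in 62 genes (0.433%) all lay below. Of the called genes, 188 of the 195 and 337 of the 351 code for protein, which was not set against the share in all genes tested. Without library 21 the numbers called higher and lower were 194 and 357, and with the share of pairs outside genes as a covariate 309 and 431. Leaving out any one of libraries 23, 25, 26, 93, 95, 96, 97 or 99 cut the higher count by more than 1.5 times, to 98 at the lowest. Leaving out any one of these or library 100 took the lower count to between 158 and 207, while without both libraries 24 and 94 the counts were 570 and 612. The tool mattered as well, since DESeq2 called 450 higher and 589 lower and limma voom with sample quality weights 1018 and 813, a majority of higher genes in place of a minority.

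**Figure D1:**
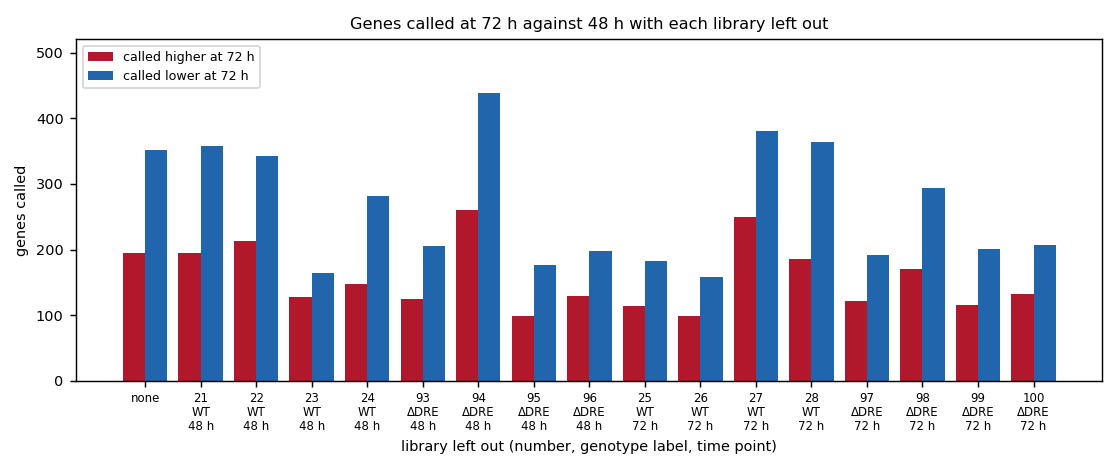
Bars give the number of genes called higher (red) and lower (blue) at 72 h with no library left out and with each of the 16 libraries left out in turn (x axis, library number, genotype label and time point; y axis, number of genes from 0). The higher count runs from 98 to 260 and the lower count from 158 to 439, and both are highest without library 94.

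Cell cycle genes gave the most calls of any list. Of 42 cell cycle genes tested, 21 were lower at 72 h and 1 was higher, and 39 of the 42 had a log2 fold change below 0, with a median of -1.16 against 0.01 for all genes. The genes that fell run through the whole cycle. They include the S-phase entry regulators Ccne1 (-1.41), E2f1 (-1.06) and Cdt1 (-1.21), the replicative helicase subunits Mcm2, Mcm3, Mcm5, Mcm6 and Mcm7 (-0.96 to -1.53), and the mitotic genes Ccna2 (-1.33), Aurka (-1.34), Aurkb (-1.35) and Birc5 (-1.48), all as log2 fold changes. Summed over the list, expression was 980.1 to 3161 CPM (median 2461) at 48 h and 769 to 1491 CPM (median 1178) at 72 h, so that the ranges overlapped.

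Rrm2, the small subunit of ribonucleotide reductase, which makes deoxyribonucleotides for replication, had a lowest, median and highest value of 58, 116.5 and 195 CPM at 48 h and of 22.3, 48.6 and 64.6 CPM at 72 h. Only the top of the 72 h range reached into that of 48 h, and the log2 fold change was -1.56 (SE 0.26, edgeR adjusted p = 0.00501). Tyms, thymidylate synthase, which makes the thymidine nucleotide, was 15.98, 30.2 and 43.7 CPM at 48 h and 6.45, 13.1 and 15.6 CPM at 72 h. Its groups did not overlap, with a log2 fold change of -1.31 (SE 0.22, adjusted p = 0.00441). Mcm6, a helicase subunit described after its values were seen, was 80.7, 131.8 and 183 CPM at 48 h and 35.6, 60.4 and 75.8 CPM at 72 h. Again every 72 h library was below every 48 h library (log2 fold change -1.18, SE 0.20, adjusted p = 0.00501). E2f8, an E2F family repressor of the same genes, also had groups that did not overlap and fell by 1.504 on the log2 scale (SE 0.31, adjusted p = 0.0132). The calls of Rrm2, Tyms, Mcm6 and E2f8 held with each library left out.

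Calls of several genes of mitosis turned on single libraries. Cdk1, the kinase that starts mitosis, was 16.6, 60.4 and 96.4 CPM at 48 h and 12.6, 25.8 and 38.3 CPM at 72 h, with overlapping groups and a log2 fold change of -1.22 (SE 0.31, adjusted p = 0.0358). Mki67 was not called (log2 fold change -1.16, SE 0.67, adjusted p = 0.368), and neither was Top2a, topoisomerase II alpha, which untangles chromosomes (-1.10, adjusted p = 0.242). Without libraries 24 and 94 the log2 fold change of Mki67 was 0.14 and that of Top2a -0.16. The calls of Cdk1 and of Ube2c, a ubiquitin-conjugating enzyme of mitotic exit (-1.39, adjusted p = 0.0399), were each lost without any one of libraries 23 to 26, 93 or 95 to 100, and that of Ube2c also without library 27. Their log2 fold changes then lay within -1.39 to -1.09 and -1.57 to -1.23. Over the list, the number called lower was 8 without library 23 and 10 to 13 without any one of libraries 25, 26, 93 or 95 to 100, and it was 11 without both libraries 23 and 27. The highest number on a single omission was 30.

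Ccnd2 was the exception. This D-type cyclin, which acts early in the cycle, was 3.54, 5.86 and 8.57 CPM at 48 h and 9.39, 15.7 and 32.5 CPM at 72 h. All 8 libraries of 72 h were above all 8 of 48 h (log2 fold change 1.502, SE 0.25, adjusted p = 0.004), in the same samples in which the related Ccnd3 was lower (-0.82).

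The DNA just upstream of cell cycle genes is shown because the group moved together and carries well-known motifs. Sequences are the bases before the RefSeq start site (GRCm38.p6), 5′ to 3′ on the gene's strand. Capitals mark the E2F motif, searched as TTCCCGC or TTGGCGC, and the cell cycle homology region (CHR), searched as TTTGAA, both on either strand. The regions are Mcm6 at chr1:128359706-128359825 (minus strand), E2f8 at chr7:48881597-48881716 (minus), Cdk1 at chr10:69352913-69353032 (minus) and Ube2c at chr2:164769809-164769928 (plus).
Mcm6: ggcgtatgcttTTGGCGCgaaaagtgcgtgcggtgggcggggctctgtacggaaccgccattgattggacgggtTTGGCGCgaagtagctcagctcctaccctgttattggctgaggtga
E2f8: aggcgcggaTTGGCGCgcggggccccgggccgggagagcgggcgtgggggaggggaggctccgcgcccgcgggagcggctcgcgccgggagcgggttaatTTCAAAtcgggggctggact
Cdk1: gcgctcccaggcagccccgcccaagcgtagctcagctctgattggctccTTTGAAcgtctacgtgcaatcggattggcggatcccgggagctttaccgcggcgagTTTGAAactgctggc
Ube2c: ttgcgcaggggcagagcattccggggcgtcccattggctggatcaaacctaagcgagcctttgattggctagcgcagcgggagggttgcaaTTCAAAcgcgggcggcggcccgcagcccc
Mcm6 holds the E2F letters at 2 places, E2f8 holds 1 E2F and 1 CHR match, Cdk1 holds CHR at 2 places and Ube2c at 1, on the other strand.

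In windows from 250 bases before to 50 after the start site, 9 of 21 windows (42.9%) of the cell cycle genes called lower held an E2F match, in 8 genes. The share was 17.6% in all windows of genes called lower, 10.2% in those called higher, 11.4% in those of all tested genes and 6.81% in all 32851 windows. For CHR it was 28.6% for the cell cycle genes called lower, 16.5% for all genes called lower, 8.25% for those called higher and 12.2% for tested genes. Windows were found for 275 of the 351 lower and 151 of the 195 higher genes. A match describes letters in a window and not binding, and the shares were not tested. Cell cycle genes not called lower were not counted as a group of their own, so the share cannot be tied to the fall.

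**Figure D2:**
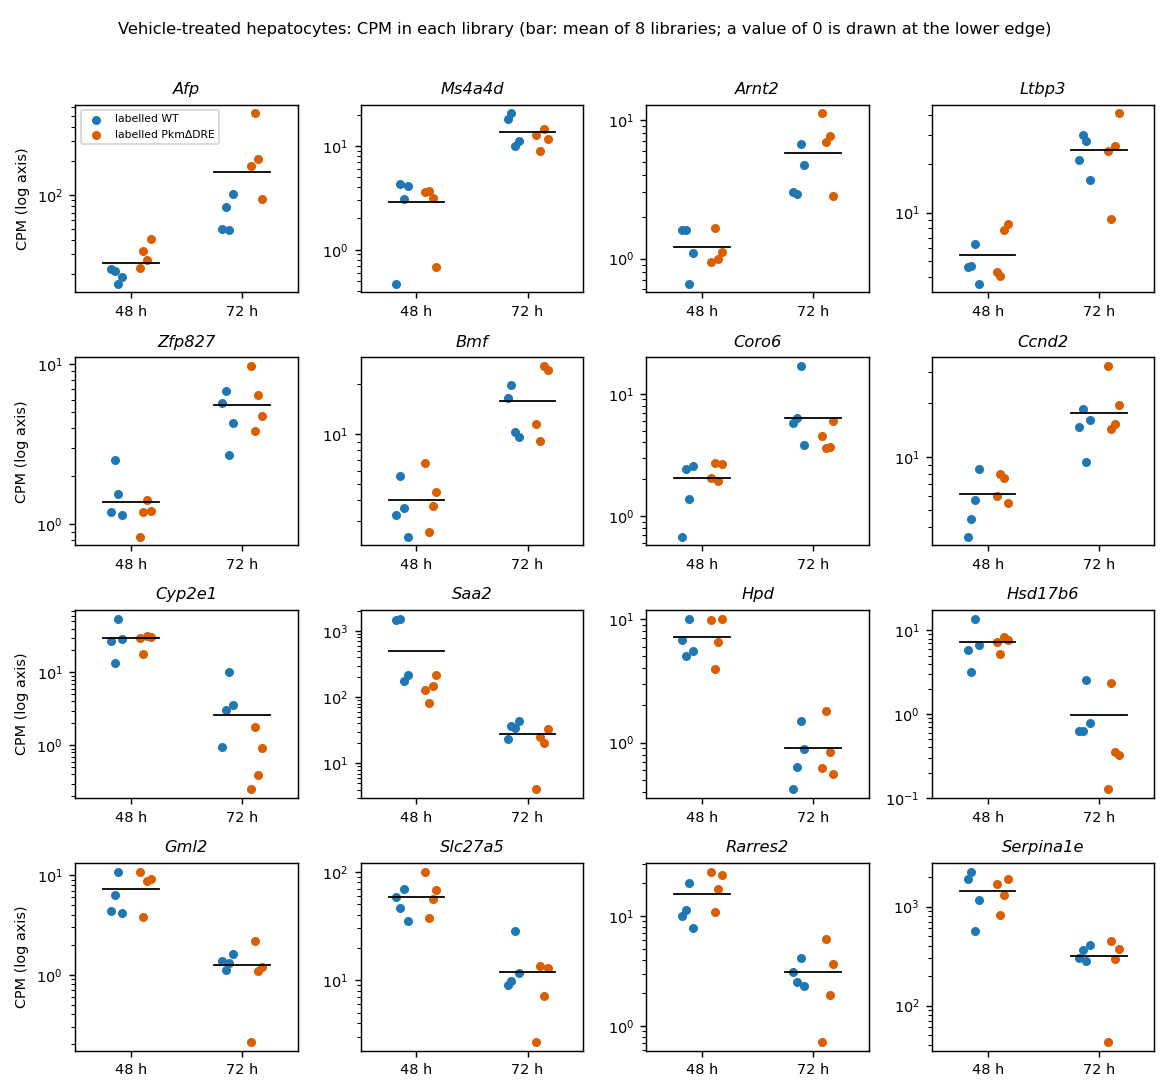
Each panel shows 1 gene, with CPM on a log axis for the 4 libraries labelled WT (blue) and the 4 labelled PkmΔDRE (orange) at 48 h and at 72 h, a bar at the mean of the 8, and a value of 0 drawn at the lower edge. The first 8 panels are called higher and the last 8 lower. In all 16 the libraries of the 2 time points do not overlap, because the genes were chosen for that. Of all called genes, 40 of 195 higher and 56 of 351 lower had no overlap.

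Several secreted liver proteins fell. Hrg, histidine-rich glycoprotein, a plasma protein of clotting and immunity made by hepatocytes, had the smallest p of all genes. Its lowest, median and highest values were 25.3, 40.1 and 53.1 CPM at 48 h and 4.02, 8.11 and 13.7 CPM at 72 h. The highest library of 72 h was far under the lowest of 48 h, and the mean went from 39.7 ± 9.48 to 8.76 ± 3.17 CPM (SD, n = 8 each) with a log2 fold change of -2.18 (SE 0.22, edgeR adjusted p = 0.000174). Serpina3k, a liver serine protease inhibitor, was 1136, 1828 and 2139 CPM at 48 h and 74.8, 392 and 592 CPM at 72 h. It fell by 2.12 on the log2 scale (SE 0.30, adjusted p = 0.0022), again without overlap. Serpina1e, an alpha-1-antitrypsin gene, was 566, 1499 and 2255 CPM against 42.6, 333 and 444 CPM (log2 fold change -2.22, SE 0.37, adjusted p = 0.00454). Serpina3k lies wholly within the annotated span of Serpina3m, and the Serpina1 genes are near-identical copies, so read pairs may be split between neighbours in both.

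By class, 2 of 18 plasma protein genes were called lower (median log2 fold change -0.33), 5 of 16 apolipoprotein genes (-0.79), 5 of 20 complement genes (-0.51), 5 of 19 coagulation genes (-0.32) and 6 of 20 acute phase genes (-0.79), and no gene of these classes was called higher. Summed over each class, the median library went from 43398 to 40885 CPM for plasma proteins and from 6180 to 5876 CPM for complement. It went from 7428 to 5671 CPM for apolipoproteins, 3611 to 2777 CPM for coagulation and 9332 to 7757 CPM for acute phase genes. The ranges of all these sums overlapped between time points. Apoa2, a structural protein of high-density lipoprotein, led the apolipoproteins. It was 344, 672 and 1320 CPM at 48 h and 40.2, 142.1 and 357 CPM at 72 h, which left the highest 72 h library just inside the 48 h range (log2 fold change -2.18, SE 0.34, adjusted p = 0.00335). Apoc3 (-1.36) and Apoc1 (-1.24), which slow lipoprotein clearance, and Lcat (-1.17), the plasma enzyme that esterifies cholesterol, fell as well. All 3 genes of the complement C8 complex, C8a (-1.89), C8b (-1.30) and C8g (-1.90), were lower, and in the coagulation list Plg (plasminogen, -1.44), Serpinc1 (antithrombin, -1.70) and F10 (factor X, -1.54). The decline was unequal, since Alb itself was not called (-0.37, SE 0.21, adjusted p = 0.37), nor were Ttr, transthyretin (-0.39, adjusted p = 0.371), and Apoa1 (-0.87, adjusted p = 0.0787). The complement count was 3 without any one of libraries 21, 22, 25, 26, 28, 93, 95, 96, 97 or 99, the coagulation count 3 without any one of libraries 21, 25, 26, 28, 93, 96 or 97 and the acute phase count 3 without library 25 or 26, while the apolipoprotein count stayed at 4 to 7. The highest complement count on a single omission was 7.

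Saa1 and Saa2, the serum amyloid A proteins of the acute phase response, fell, by an amount that turned on 2 libraries. Saa2 was 82.6, 196 and 1532 CPM at 48 h and 4.02, 29.1 and 44.2 CPM at 72 h. Every 72 h library was below every 48 h library, with a log2 fold change of -3.71 (SE 0.55, edgeR adjusted p = 0.0022). Saa1 was 125.8, 283 and 1910 CPM at 48 h and 10.8, 69.03 and 127.2 CPM at 72 h (log2 fold change -2.84, SE 0.49, adjusted p = 0.00557), with the highest 72 h library just above the lowest of 48 h. Libraries 21 and 22 held by far the most of both at 48 h. Without both, the log2 fold change was -2.72 for Saa2 (SE 0.35, adjusted p = 0.00193) and -1.98 for Saa1 (SE 0.33, adjusted p = 0.00436). Saa3 (-2.27) and Orm1, orosomucoid (-1.58), were called lower too. The 2 genes are near-identical in sequence and read pairs may be assigned to either. Their upstream DNA is shown for that reason, 200 bases each from RefSeq (GRCm38.p6), with capitals at the C/EBP motif searched as TTGCGCAA or TTGCACAA on either strand. Saa1 is at chr7:46742981-46743180 on the minus strand and Saa2 at chr7:46751633-46751832 on the plus strand.
Saa1: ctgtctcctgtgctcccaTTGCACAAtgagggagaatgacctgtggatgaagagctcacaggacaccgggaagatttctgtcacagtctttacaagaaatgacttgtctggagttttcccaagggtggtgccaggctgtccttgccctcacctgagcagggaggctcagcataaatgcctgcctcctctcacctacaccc
Saa2: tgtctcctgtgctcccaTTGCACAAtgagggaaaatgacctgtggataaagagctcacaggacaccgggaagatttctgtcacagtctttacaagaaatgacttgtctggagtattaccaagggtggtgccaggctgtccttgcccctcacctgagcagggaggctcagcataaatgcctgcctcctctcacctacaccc
The stretches shared 195 identical bases over 201 aligned positions (97%), with 2 gap positions, and each held 1 match. Besides these, only Hrg among the lower genes with a window held a C/EBP match, so that 0.882% of lower windows, 1.46% of higher windows and 1.04% of windows of tested genes had one.

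**Figure D3:**
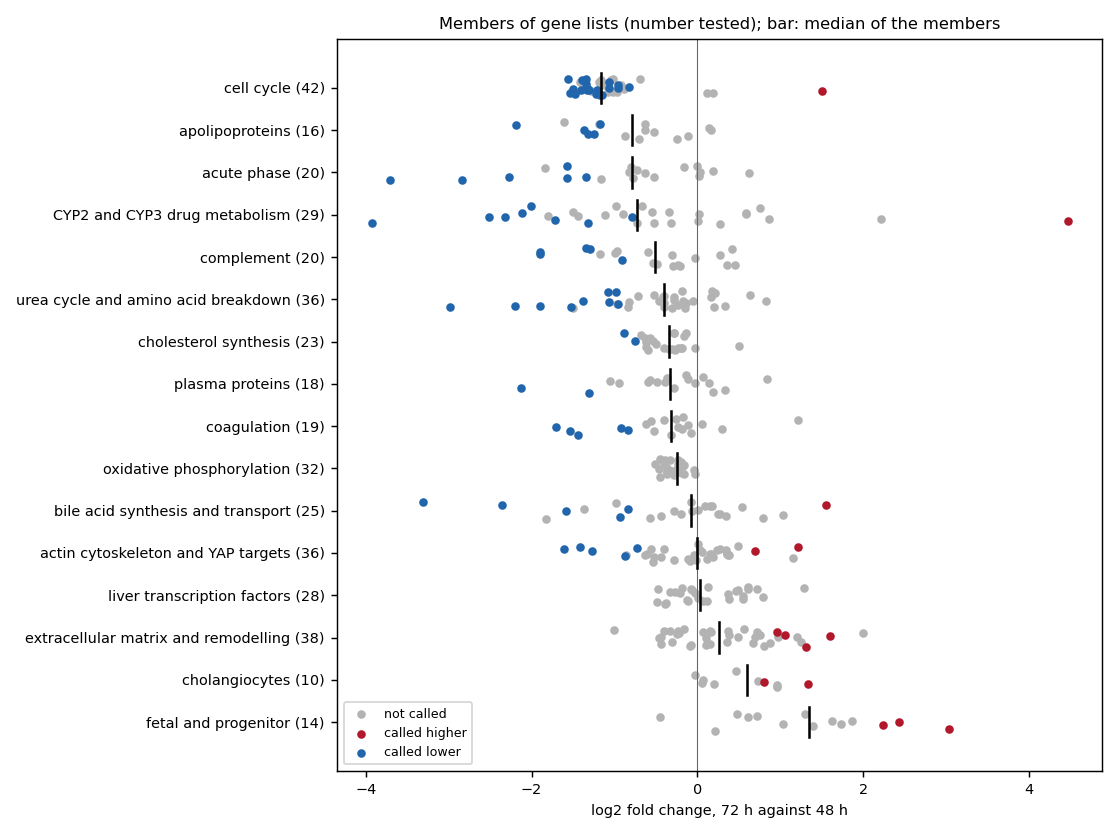
Each point is 1 tested gene of a list (y axis, number tested in brackets) at its log2 fold change, 72 h against 48 h (x axis), coloured grey when not called, red when called higher and blue when called lower, with a bar at the list's median. Medians run from -1.16 for the cell cycle to 1.35 for fetal and progenitor genes, and oxidative phosphorylation lies wholly below 0 with no gene called.

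Among enzymes of drug metabolism, 8 of 29 tested CYP2 and CYP3 genes were called lower and 1 higher, with 20 not called and a median log2 fold change of -0.73. Phase 2 conjugation, the step after oxidation, had 3 lower and 1 higher of 34, with 21 above 0 and a median of 0.12. Its summed level was 2751 to 12983 CPM (median 4616) at 48 h and 5534 to 17725 CPM (median 7444) at 72 h. These ranges overlapped, and libraries 21 and 27, which stood apart above, were the highest of their time points. Cyp2e1, the ethanol-oxidising cytochrome P450 of hepatocytes around the central vein, was 13.3, 29.1 and 54.4 CPM at 48 h and 0, 1.38 and 9.99 CPM at 72 h. All 72 h libraries were below all of 48 h, and 1 library, number 97, had no read pair on the gene. The log2 fold change was -3.92 (SE 0.66, edgeR adjusted p = 0.00497). Cyp3a11, the main mouse CYP3A enzyme, was 4.43, 16.2 and 95.7 CPM at 48 h and 0.784, 2.65 and 18.9 CPM at 72 h, so its groups overlapped (log2 fold change -2.32, SE 0.49, adjusted p = 0.0153). Cyp2d26 (-1.32), Cyp2f2 (-1.71) and the CYP2C genes Cyp2c29 (-2.12), Cyp2c37 (-2.01), Cyp2c54 (-2.51) and Cyp2c70 (-0.78) were lower, though CYP2C genes share sequence and their values are uncertain for that reason. The CYP2 and CYP3 count was 4 or 5 without any one of libraries 23, 25, 26, 95, 97, 99 or 100, and at most 10 on a single omission.

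Cyp2a4, a steroid hydroxylase with a near-identical paralog, was the one CYP2 gene called higher. It ranged from 0 to 8.49 CPM at 48 h and from 1.08 to 139.01 CPM at 72 h, with overlapping groups (log2 fold change 4.47, SE 1.04, adjusted p = 0.0244). The call was lost under DESeq2 and without any one of libraries 23, 27, 95 or 96, where the log2 fold change lay within 3.08 to 5.74. The 120 bases before the start site of Cyp3a11 (chr5:145879855-145879974, minus strand, RefSeq GRCm38.p6) are shown because an HNF4 motif, searched as CAAAGTCCA on either strand and set in capitals, was the motif with no match among the higher genes.
Cyp3a11: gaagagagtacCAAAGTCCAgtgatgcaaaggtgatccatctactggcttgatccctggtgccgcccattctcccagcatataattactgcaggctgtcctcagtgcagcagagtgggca
These letters were in 8 windows of 6 lower genes (2.35%), namely Agxt2, Ankrd13a, Cyp2c70, Cyp3a11, Hsd3b3 and Treh, in 0 of 206 higher windows and in 0.493% of windows of tested genes. HNF4 was among 6 motifs searched, and these shares were not tested. Hnf4a, the factor itself, was 311, 441 and 655 CPM at 48 h and 336, 373 and 641 CPM at 72 h, with a log2 fold change of -0.07 (SE 0.16, adjusted p = 0.845) whose sign turned without library 21 (0.03). None of 28 liver transcription factors tested was called, including Prox1 (0.79, adjusted p = 0.0804).

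Amino acid breakdown was lower in 9 of 36 tested genes (median log2 fold change -0.40), and none was higher. Hpd, which converts 4-hydroxyphenylpyruvate in tyrosine breakdown, was 3.97, 6.62 and 10.1 CPM at 48 h and 0.418, 0.74 and 1.79 CPM at 72 h. No libraries overlapped, and the log2 fold change of -2.98 (SE 0.33, edgeR adjusted p = 0.000384) held with each library left out. Hpd lies within Psmd9 on the opposite strand and the counting did not use strand, so some pairs may come from that gene. Gnmt, glycine N-methyltransferase, which sets the level of S-adenosylmethionine, was 8.11, 18.7 and 25.9 CPM against 1.88, 3.37 and 9.09 CPM (-2.20, SE 0.33, adjusted p = 0.0022). Aass, the first enzyme of lysine breakdown, fell by 1.38 on the log2 scale (SE 0.20, adjusted p = 0.0022) with no overlap, and Haao (-1.90) of tryptophan breakdown, Agxt (-1.52), Mat1a (-1.07) and the urea cycle enzyme Ass1 (-0.96) were also lower. The count was 5 without library 25, 26 or 93, and at most 10 on a single omission.

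Bile acid and lipid genes moved as single members. Slc27a5, which activates bile acids for conjugation and fatty acids for use, was 35.4, 57.2 and 100 CPM at 48 h and 2.68, 10.8 and 28.2 CPM at 72 h. Its libraries did not overlap (log2 fold change -2.35, SE 0.35, adjusted p = 0.00242). Abcc4, an export pump of the basolateral membrane, was 44.8, 74.6 and 364 CPM at 48 h and 110, 256 and 513 CPM at 72 h, overlapping (1.55, SE 0.35, adjusted p = 0.0221). Together 5 of 25 bile acid genes were lower and 1 higher, with a median of -0.07, and the lower count went as far as 1 without library 23. Of 31 fatty acid oxidation genes 3 were lower, among them the omega-hydroxylase Cyp4a12a (-2.40, adjusted p = 0.00536), which has a near-identical neighbour. Of 21 lipogenic genes 2 were lower, led by Acacb (-1.32, SE 0.22, adjusted p = 0.00501), the mitochondrial acetyl-CoA carboxylase, whose groups did not overlap. Of 23 cholesterol genes 2 were lower and 22 were below 0 (median -0.34).

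Other named genes of the lower set have varied roles. Hsd17b6, which oxidises androgen metabolites, was 3.17, 6.95 and 13.8 CPM at 48 h and 0.126, 0.63 and 2.56 CPM at 72 h (log2 fold change -2.93, SE 0.51, adjusted p = 0.00557). Rarres2, the precursor of the chemoattractant chemerin, fell by 2.33 (SE 0.36, adjusted p = 0.00242), and Pglyrp2, an amidase that cuts bacterial peptidoglycan, by 2.10 (SE 0.35, adjusted p = 0.00497). The neighbouring GPI-anchored genes Gml (-2.14) and Gml2 (-2.52) fell together and may share read pairs. All of these had no overlap between time points, which the rule that named them required. Alas2, a heme synthesis enzyme, fell by 1.91 (adjusted p = 0.0022) and Igfbp2, an IGF-binding protein, by 2.11 (adjusted p = 0.00593), both on the log2 scale and both with each library left out. Alas2 lies within Apex2 on the opposite strand and the counting did not use strand, so some of its pairs may come from Apex2.

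The genes called higher included fetal liver genes. Afp, alpha-fetoprotein, the main plasma protein of the fetal liver, had the largest log2 fold change of the higher genes without overlap between time points and of at least 5 CPM. It was 16.5, 22.7 and 40.95 CPM at 48 h and 48.97, 96.9 and 528 CPM at 72 h, with the mean going from 25.2 ± 7.96 to 161 ± 159 CPM (SD, n = 8 each). The time points did not overlap, but the 72 h libraries varied widely, from 48.97 in a library labelled WT to 528 in one labelled PkmΔDRE. The log2 fold change was 2.43 (SE 0.33, edgeR adjusted p = 0.0022) and lay between 2.08 and 2.55 with each library left out. Afp overlaps the predicted gene Gm43449 on the other strand over 54% of its span. The 120 bases before its start site (chr5:90490594-90490713, plus strand, RefSeq GRCm38.p6) hold the HNF1 motif, searched as GTTAATNAT on either strand and set in capitals, and no other higher gene with a window does.
Afp: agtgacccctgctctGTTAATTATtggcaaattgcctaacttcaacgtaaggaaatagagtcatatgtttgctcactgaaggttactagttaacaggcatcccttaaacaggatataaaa
The same letters were in 0.485% of higher windows, 1.18% of lower windows and 0.575% of windows of tested genes. Of 14 fetal and progenitor genes tested, 3 were higher and 13 were above 0, with a median log2 fold change of 1.35. Gpc3, an oncofetal glypican (3.03, adjusted p = 0.0396), was at most 0.636 CPM at 48 h and ran from 0.0427 to 18.02 CPM at 72 h, and Bex4 (2.24, adjusted p = 0.0333) was also scarce. Gpc3 and Bex4 lost their calls without any one of 11 and 10 single libraries, with log2 fold changes of 2.16 to 3.42 and 1.81 to 2.71. Only Afp was called without any one of libraries 23, 25, 26, 93, 95, 96, 98 or 99, while the highest count of the list on a single omission was 6.

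Of 38 extracellular matrix genes tested, 4 were called higher and none lower, with 25 above 0 and a median log2 fold change of 0.26. Fn1, fibronectin, an abundant product of cultured hepatocytes, was 2574, 4574 and 6852 CPM at 48 h and 5780.3, 9875 and 12541 CPM at 72 h. The groups overlapped, and the log2 fold change was 1.05 (SE 0.19, adjusted p = 0.00557). Lama5, a laminin chain of basement membranes, was 58.6, 112.3 and 127.9 CPM at 48 h and 180, 201 and 225 CPM at 72 h. It had a tight spread and no overlap, with a log2 fold change of 0.96 (SE 0.14, adjusted p = 0.00228). The others were Timp2 (1.597), an inhibitor of matrix proteases, whose call was lost on 12 of 16 single omissions, and Tgfb2 (1.31), a TGF-beta ligand, lost without library 93 or 95. Ltbp3, which holds latent TGF-beta in the matrix, was 3.62, 4.66 and 8.45 CPM at 48 h and 9.17, 24.8 and 41.1 CPM at 72 h, without overlap (2.17, SE 0.27, adjusted p = 0.00185).

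The remaining higher genes named by rule were low in level. That they had no overlap between time points was a condition of the rule. Arnt2, a partner of PAS-domain factors and paralog of the AHR partner Arnt, was 0.658, 1.11 and 1.67 CPM at 48 h and 2.81, 5.7 and 11.2 CPM at 72 h (log2 fold change 2.20, SE 0.33, adjusted p = 0.0022). Bmf, a BH3-only protein that triggers apoptosis on loss of anchorage, was 2.4, 3.63 and 6.69 CPM against 9.12, 13.98 and 25.7 CPM (1.98, SE 0.28, adjusted p = 0.0022). Zfp827, a zinc finger protein, was 0.836, 1.21 and 2.52 CPM against 2.69, 5.22 and 9.72 CPM (2.02, SE 0.30, adjusted p = 0.0022). Ms4a4d, a membrane-spanning 4A protein, rose by 2.21 on the log2 scale, Cbx6, a Polycomb subunit, by 1.45, Arhgef28 by 1.43, Ano1, a calcium-activated chloride channel, by 1.397, and Cys1, a protein of the primary cilium, by 1.26, with adjusted p from 0.00242 to 0.0196. Coro6, an actin-binding coronin (1.55, adjusted p = 0.0273), lost its call without library 23, 95 or 100. Cbx6 shares 95.8% of its span with Npcd on the same strand.

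Of 36 actin cytoskeleton and YAP target genes, 5 were lower and 2 higher, with a median of -0.01. The lower ones were 3 tubulins, Tpm2 and S100a10. Tpm2, beta-tropomyosin, was 29.95, 62.6 and 94.3 CPM at 48 h and 6.37, 20.5 and 30.1 CPM at 72 h (log2 fold change -1.60, SE 0.26, adjusted p = 0.004), Tuba1c was at -1.27 (adjusted p = 0.00596) and Tubb2a at -0.88 (adjusted p = 0.0102). The higher ones were Axl, a receptor tyrosine kinase (1.21), and Amotl2, an angiomotin (0.69), both known YAP targets. Of 23 junction genes 1 was lower, Cgn, cingulin, whose call was lost on 14 of 16 single omissions.

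No gene was called in the gluconeogenesis, glycolysis, NRF2, AHR, unfolded protein, heat shock, NF-kB, interferon, TCA cycle, oxidative phosphorylation and mitochondrial genome lists. In oxidative phosphorylation all 32 genes tested were below 0 (median -0.25), and Cycs, cytochrome c, passed the p threshold at less than 1.5-fold (-0.51, SE 0.11, adjusted p = 0.02). All 11 mitochondrially encoded genes were below 0 as well (median -0.26). Single genes were called in the p53 (Pmaip1, 1.89), clock (Nr1d1, 1.07), growth hormone (Irs2, 0.80, against Igfbp2 and Prlr, -1.81), iron (Bmp6, 1.36, against Alas2) and Wnt lists (Tnfrsf19, 2.19, against Cyp2e1). Of the 16 single omissions, 13 ended the call of Bmp6, 10 that of Pmaip1, 8 that of Prlr, 7 that of Tnfrsf19, 4 that of Irs2 and 1 that of Nr1d1, while Igfbp2, Alas2 and Cyp2e1 kept theirs. Cyp1a1 was not called in all 16 libraries (log2 fold change -1.34, SE 3.79, adjusted p = 0.879), but without library 21 it was higher at 72 h (3.18, SE 0.73, adjusted p = 0.0222), from a median of 2.05 CPM at 48 h to 13.2 CPM at 72 h over all libraries. Pkm, the gene whose element the line lacks, was at 0.46 (SE 0.45, adjusted p = 0.625).

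Markers of other liver cells were read from lists of genes typical of each. In bulk RNA, fewer cells of a type and less RNA per cell cannot be told apart. Over 15 tested macrophage genes the summed level was 146 to 422 CPM at 48 h and 79.2 to 241 CPM at 72 h, with 14 below 0 (median log2 fold change -0.34). Over 16 endothelial genes it was 212 to 879 and 126.8 to 407 CPM, with 15 below 0 (-0.56), and over 12 stellate and fibroblast genes 51.8 to 159 and 76.7 to 238 CPM, with 9 above 0 (0.27). None of these was called. Of 10 cholangiocyte genes 9 were above 0 and 2 were higher, with 420.3 to 1176 CPM at 48 h and 537 to 1696 CPM at 72 h. Bicc1, an RNA-binding protein of ducts (1.33, SE 0.26, adjusted p = 0.0106), and Sox9, a biliary and progenitor factor (0.81, adjusted p = 0.039), were those called, and the call of Sox9 was lost on 10 of 16 single omissions. The sums of lymphocyte and neutrophil genes were at most 1.26 CPM and none of 16 was tested. The part of these cells in the fetal and matrix changes was not tested.

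No gene's change was shown to differ between the genotype labels by the interaction test (edgeR, 0 called of 14334 tested, smallest adjusted p = 1, 280 at an unadjusted p under 0.05, and 0 by DESeq2), which with 4 libraries for each label and time does not show that the changes were alike. Fras1, Recql4 and Ces1d had the smallest p, with label differences of 3.61, -1.87 and -7.96 on the log2 scale. All 182 higher and 342 lower genes tested under both labels kept their direction under both, a direction that their choice on both labels together in part fixes. The medians were 1.06 and -0.82 for the WT label and 1.33 and -1.35 for the PkmΔDRE label, and for the cell cycle list -0.63 and -1.63. With 4 against 4 libraries the WT label alone called no gene (1006 at an unadjusted p under 0.05) and the PkmΔDRE label alone called 13 higher and 29 lower.

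The step from 48 to 72 h was also tested in TCDD-treated hepatocytes, in 16 other libraries. The labels name no animal, isolation or day, so whether these share isolations with the vehicle libraries is not known. Between 48 and 72 h under TCDD 431 genes were higher (3.05% of 14123 tested) and 603 lower (4.27%), or 378 and 576 without library 64. Of the 195 genes higher in vehicle, 64.1% were called higher under TCDD, which is 29% of the TCDD calls, and of the 351 lower 270 (76.9%) were called lower, 44.8% of the TCDD calls. All 189 higher genes tested there kept their sign and so did 345 of 347 lower genes, while agreement in sign over all genes tested was not counted. Afp changed by 2.43 in vehicle and 2.33 under TCDD, Hrg by -2.18 and -2.17, Ccnd2 by 1.502 and 1.23, and Mcm6 by -1.18 and -1.17, all as log2 fold changes. The 2 genes that turned were Fabp1, the liver fatty acid-binding protein (-2.59 and 0.20), and Ces1b, a carboxylesterase (-1.51 and 0.55), whose vehicle calls were lost on 5 and 12 of the 16 single omissions. They were among the 3 smallest p of the treatment interaction together with Gm12696, but none of 15153 genes passed (smallest adjusted p = 1, 0.733% at an unadjusted p under 0.05, 0 by DESeq2). That no gene passed does not show that the changes were alike.

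**Figure D4:**
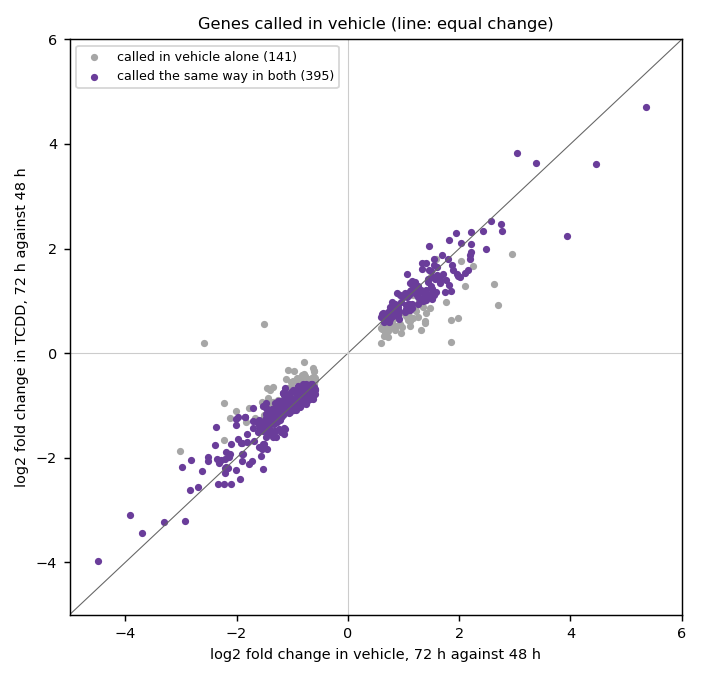
Each point is a gene called in vehicle and tested under TCDD, at its log2 fold change from 48 to 72 h in vehicle (x axis) and under TCDD (y axis), purple where called the same way in both (395) and grey where called in vehicle alone. The line marks equal change, and all but 2 of the 536 points have equal sign on both axes.

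Over the whole culture the step was one part of a longer course. Against 24 h, the vehicle libraries of 120 h, none of which is in the comparison above, had 3545 genes higher (23.3% of 15197 tested) and 3118 lower (20.5%). Of the 195 genes higher from 48 to 72 h, 191 were also higher from 24 to 120 h, and of the 351 lower 309 were also lower, while 3 were higher. Afp had medians of 8.09, 22.7, 96.9 and 166 CPM at 24, 48, 72 and 120 h. Hrg started at a median of 1286 CPM at 2 h, reached 174 CPM by 24 h, passed through 40.1 and 8.11 CPM within the step studied here, and ended at 6.79 CPM. Lama5 went from 17.5 CPM at 24 h to 112.3 and 201 CPM and was level after 72 h (221 CPM at 120 h). Of the cell cycle list, 9 genes were higher and 15 lower at 120 h against 24 h (median log2 fold change -0.05). The medians of Mcm6 at 24, 48, 72 and 120 h were 151, 131.8, 60.4 and 24.9 CPM, while Rrm2 had medians of 27.9, 116.5, 48.6 and 8.16 CPM at the same 4 time points. A library labelled 4 h and a library labelled 96 h, both labelled PkmΔDRE, stand apart in this course, with Hrg at 5.38 and 739 CPM where the other 7 of each time ran from 840 to 1179 and from 4.18 to 8.8 CPM. Neither is in the 48 or 72 h groups.

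**Figure D5:**
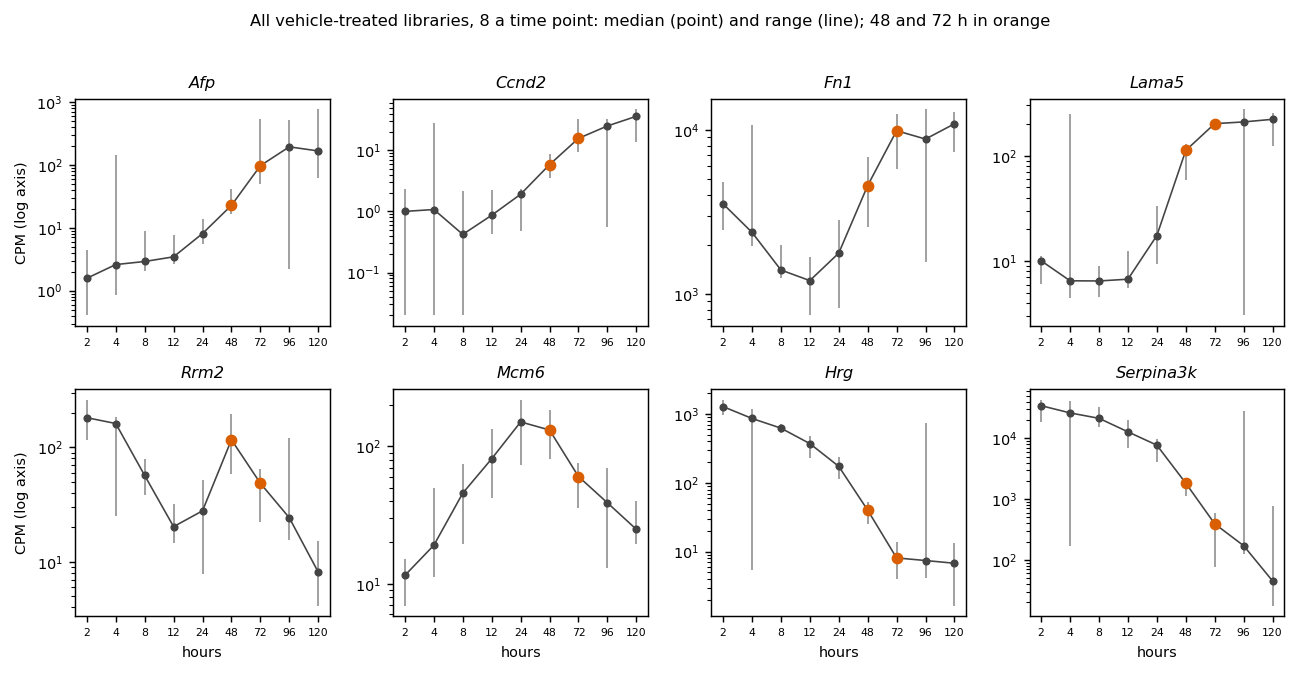
Each panel shows 1 gene over the 9 time points in the vehicle libraries, as the median (point) and range (line) of 8 libraries in CPM on a log axis, with 48 and 72 h in orange. Afp, Ccnd2 and Lama5 climb from 24 h, Mcm6 has its highest median at 24 h, Rrm2 falls from 2 h to 12 h and has a second maximum at 48 h, and Hrg and Serpina3k decline from 2 h, and the long lines at 4 and 96 h are the libraries that stand apart there.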

How the data were processed

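RNA-Seq was done on 144 hepatocyte libraries, of which the 16 given DMSO and harvested at 48 or 72 h are compared. The authors trimmed reads with Trimmomatic 0.39 and aligned them to GRCm39 with STAR 2.7, and the deposited counts are STAR's raw numbers of uniquely mapped read pairs per gene without regard to strand. FastQC 0.11.3 is also named in the submitters' notes. Lines naming no gene (19.39% to 26.47% of pairs) were left out. Symbols and overlapping neighbours were taken by Ensembl identifier from an annotation of GRCm38, so gene positions are not given, and the RefSeq promoter regions are on that build. Genes were filtered with filterByExpr (count minimum 10, total minimum 15) and tested with edgeR 4.0.16 (R 4.3.3), as an additive model of genotype label and time, TMM scaling, robust quasi-likelihood fit and Benjamini-Hochberg adjustment. The model was tested on simulated data. Alternatives were RLE scaling, no filter, DESeq2 1.42.0, limma 3.58.1 voom, other covariates, other sets of libraries and leaving out each library. Leaving out libraries 21 and 22, 23 and 27 or 24 and 94, and the comparison of 120 with 24 h, were chosen after seeing the data. Genes were named as the 12 highest and 12 lowest log2 fold changes among called genes of at least 5 CPM without overlap between time points, the 3 smallest p in each gene list and interaction test, hepatocyte markers, Pkm and AHR targets. Others were picked after their values were seen, among them Mcm6, E2f8, Cdk1, Ube2c, Cyp2a4, Timp2, Mki67 and Top2a. The gene lists and the comparison itself were chosen with earlier results of these data known. Depth limits low genes most, and CPM near or under 1 rests on few read pairs.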

Additional observations from a re-analysis of the deposited data

Results flagged for a closer look

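In groups of 4 libraries, values that lay far from the other 3 by Dixon's criterion were found in 21 of 152 groups checked (34 genes, the count on genes, the genes detected and the shares of pairs unmapped and outside genes, in 4 groups), or 13.8%. The criterion's nominal rate of about 1 in 20 is for independent, normally distributed values. These genes were measured in the same libraries, so the rates cannot be compared. Library 27 (labelled WT, 72 h) gave the most. It had Pkm at 2069 CPM (nearest other 468), Alb at 10760 CPM (5898), Nqo1, an AHR and NRF2 target, at 83.4 CPM (29.7), Slc27a5 at 28.2 CPM (11.8), Cyp3a11 at 18.9 CPM (4.7), Pglyrp2 at 7.04 CPM (4.57), Gml at 2.86 CPM (1.63) and Hsd17b6 at 2.56 CPM (0.791). In all 8 the value was the highest of its group, and in Slc27a5, Cyp3a11, Pglyrp2, Gml and Hsd17b6 it lay on the side of the 48 h libraries.

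Library 21 (labelled WT, 48 h) had Cyp1a1 at 3253 CPM (nearest other 2.36), Cyp1a2 at 597 CPM (19.8), Nqo1 at 106 CPM (19.4) and Arhgef28 at 2.29 CPM (5.53). Cyp1a1, Cyp1a2 and Nqo1 are targets of AHR. Library 23 (labelled WT, 48 h) had Pkm at 1187 CPM (240) and Gml at 8.83 CPM (5.05). Library 24 (labelled WT, 48 h) had Pglyrp2 at 9.56 CPM (21.03). Library 28 (labelled WT, 72 h) had Apoa1 at 1305 CPM (624) and Hnf4a at 515 CPM (376). Among libraries labelled PkmΔDRE, library 94 (48 h) had 11.3% of uniquely mapped pairs outside genes (5.36%), Cyp2e1 at 17.9 CPM (29.5) and Cyp1a2 at 10.1 CPM (18.2), and library 98 (72 h) had Hsd17b6 at 2.33 CPM (0.349). The part of each of these in the 72 h against 48 h changes was tested only by leaving out libraries, singly and as 3 pairs, and by fitting the share of pairs outside genes as a covariate.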

How the results depend on the processing

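Against 195 higher and 351 lower genes (1.36% and 2.45% of genes tested), the counts were 450 and 589 (3.14% and 4.11%) with DESeq2, 1018 and 813 (7.1% and 5.67%) with limma voom and sample quality weights, 13 and 29 (0.0986% and 0.22%) for the PkmΔDRE label alone, 0 and 0 for the WT label alone (1006 at an unadjusted p under 0.05), and 570 and 612 (3.94% and 4.23%) without libraries 24 and 94. One fit of all 72 vehicle libraries called 0.63% higher and 1.27% lower. With the share of pairs outside genes as a covariate 309 genes (2.16%) were higher and 431 lower, and without libraries 23 and 27 the counts were 173 and 216 (1.47%). Without libraries 21 and 22 they were 215 and 407. Leaving out each library gave 98 to 260 higher (0.663% to 1.77%) and 158 to 439 lower (1.07% to 2.99%). RLE scaling (208 and 347), no filter, no genotype covariate, the unmapped share as a covariate and no fold threshold stayed within 1.5 times. No called gene changed sign under any of these, and DESeq2 kept 193 and 348 of the calls. Of 81 called genes named, 48 lost the call in the fit of 72 libraries. The cause was not tested. Under TCDD the counts were 431 and 603, against 818 higher with DESeq2 and 396 lower with no filter, and 234 to 956 and 331 to 997 without single libraries. Both interaction tests gave 0 under every alternative run. Signs turned only in genes that were not called, as log2 fold changes. Cyp1a1 was 0.60 with voom, 3.49 for the PkmΔDRE label, 0.51 without libraries 23 and 27, 3.21 without libraries 21 and 22 (adjusted p = 0.0355) and -3.23 to 3.18 without single libraries. Cyp1a2 was 0.66 for the PkmΔDRE label, 0.27 without libraries 21 and 22 and -1.92 to 0.36 without single libraries. Nqo1 was -0.031 without libraries 23 and 27. Hnf4a was 0.01 with the outside-gene covariate, 0.055 without libraries 21 and 22 and -0.17 to 0.033 without single libraries. Pkm was -0.038 to 0.91 without single libraries. Fras1 was -1.05 for the WT label. Ces1d was 1.70 with no genotype covariate, 0.046 with the outside-gene covariate, 3.28 for the WT label and -2.94 to 0.77 without single libraries. Tiparp was 0.017 for the WT label, 0.31 without libraries 24 and 94 and -0.55 to 0.20 without single libraries. Mki67 was 0.012 with voom and 0.14 without libraries 24 and 94. No paired analysis was possible because the labels give no replicate number, animal or batch that the groups share, and the numbers used here only name libraries.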

Other observations

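Gene families were also counted after their values were seen, and are given without a test. Some of their genes are members of the lists above and were counted there already. Replication reached beyond the cell cycle list. Of 28 tested genes of the replication fork (polymerases, clamp loader, RPA and GINS), 14 were called lower and all 28 were below 0, with a median log2 fold change of -0.75, among them Pole, Pola2, Lig1, Rpa1 and Rpa2. Of 9 minichromosome maintenance genes 6 were lower and all 9 were below 0. Of these 6, all but Mcm10 were given above with the cell cycle list. Of 14 alpha and beta tubulins 7 were lower and none higher (median -0.92), in vehicle and again under TCDD. Among the 7 are tubulins counted above with the actin cytoskeleton genes, such as Tuba1c and Tubb2a. Of 13 major urinary protein genes, male mouse liver products that are near-identical in sequence and cannot be told apart with certainty, 3 were lower and 12 below 0 (-0.70).

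Some guidance genes were called higher. Of 31 semaphorin, plexin, netrin and Robo genes, which steer axons and epithelial sheets, 8 were higher, among them Robo1, Ntn1, Ntn4 and Plxna3, and 1 was lower, with 17 above 0 and 14 below (median 0.36), with 4 higher and 1 lower under TCDD. Of 11 receptor tyrosine phosphatases 3 were higher (Ptprs, Ptprm and Ptprn). Of 336 zinc finger (Zfp) genes 6 were called higher and 1 lower, yet 285 were above 0 (0.37), while of 79 cytosolic ribosomal protein genes 77 were below 0 (-0.37) with 1 called lower. RNA composition and transcript length were not tested as to their part in these last shifts.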
